A study of Mus musculus with 6 samples.

Results

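The genes described here are 8 homeodomain transcription factors: Nkx2-2, Pax4, Pax6, Isl1, Mnx1, Nkx6-3, Pdx1 and Prox1. Each is linked to endocrine cells of the gut or pancreas, and several are also expressed in other cells. They were taken by gene name from the deposited tables, where they make up 8 of 23699 gene models and carry 15 annotated isoforms. The libraries came from the duodenum, the first 2 cm after the stomach, of mice of mixed background at 6 weeks of age. The 3 control samples had the genotype Nkx2.2flox/+, so they held 1 floxed allele and no Cre. The 3 mutant samples were Nkx2.2flox/flox and also carried Villin-Cre/+, and the mutant numbered 3 had a Rosa26Tomato/+ allele besides. The controls lacked Cre, so an effect of Cre itself and the loss of Nkx2-2 cannot be told apart in this design. Villin-Cre acts in the intestinal epithelium, while the RNA came from the whole wall, which also holds nerves, muscle, vessels and immune cells. Levels are FPKM, the number of fragments scaled by transcript length and library size, and values of a group are given in the order of replicate number. The libraries held 21.0 to 26.3 M fragments.

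A homeodomain is a compact DNA-binding fold whose last helix reads the major groove, and factors that carry one set and keep the identity of endocrine cells in gut and pancreas. In the pancreas Nkx2-2, Pax4, Pax6, Isl1, Mnx1 and Pdx1 are each needed for normal islet hormone cells. In the gut, Pdx1 marks the duodenal epithelium, Nkx6-3 the distal stomach and duodenum, and Nkx2-2, Pax4, Pax6 and Isl1 scattered enteroendocrine cells, which release hormones into the blood. Prox1 is also the defining factor of lymphatic endothelium, and Isl1 and Mnx1 also act in motor neurons.

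The homeobox, the stretch that encodes the homeodomain, is what these 8 genes share, and its recognition core is shown for 7 of them to compare the genes. Each line gives 42 bases of the GENCODE M1 coding sequence, 5′ to 3′. Capitals mark the 6 codons that begin with the conserved tryptophan, residue 48 of the 60 in a homeodomain.
Mnx1: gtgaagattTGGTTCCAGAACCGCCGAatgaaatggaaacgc
Nkx6-3: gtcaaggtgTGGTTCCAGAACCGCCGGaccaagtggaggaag
Pdx1: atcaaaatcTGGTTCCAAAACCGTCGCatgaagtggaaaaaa
Pax4: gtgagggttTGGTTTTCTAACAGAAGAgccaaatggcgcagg
Pax6: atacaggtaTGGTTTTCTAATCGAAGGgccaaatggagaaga
Isl1: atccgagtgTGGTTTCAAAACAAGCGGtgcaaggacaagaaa
Prox1: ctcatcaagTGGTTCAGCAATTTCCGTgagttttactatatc
Over the 180 bases of the homeobox, compared position by position without gaps, Pax4 and Pax6 had 114 bases in common.

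The 8 genes fell into a pair at high level and a low group of 6. In controls Pdx1 stood at 89.8 ± 3.42 FPKM and Nkx6-3 at 23.1 ± 4.31 FPKM (SD, n = 3 here and for all such values). The remaining 6 had control means between 0.265 FPKM for Prox1 and 1.07 FPKM for Nkx2-2. In the order of control means, which ran Pdx1, Nkx6-3, Nkx2-2, Mnx1, Isl1, Pax4, Pax6 and Prox1, only the first 2 steps separated the 3 control values of neighbours completely. From Nkx2-2 downwards the control ranges of neighbours overlapped. Whole fragments could be worked back for the 5 members with 1 isoform, and estimated for the other 3. Pdx1 rested on 1757 to 2500 fragments per library and Nkx6-3 on 973 to 1398, whereas Pax4 rested on 5 to 31 and Nkx2-2 on 7 to 51.

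**Figure D1:**
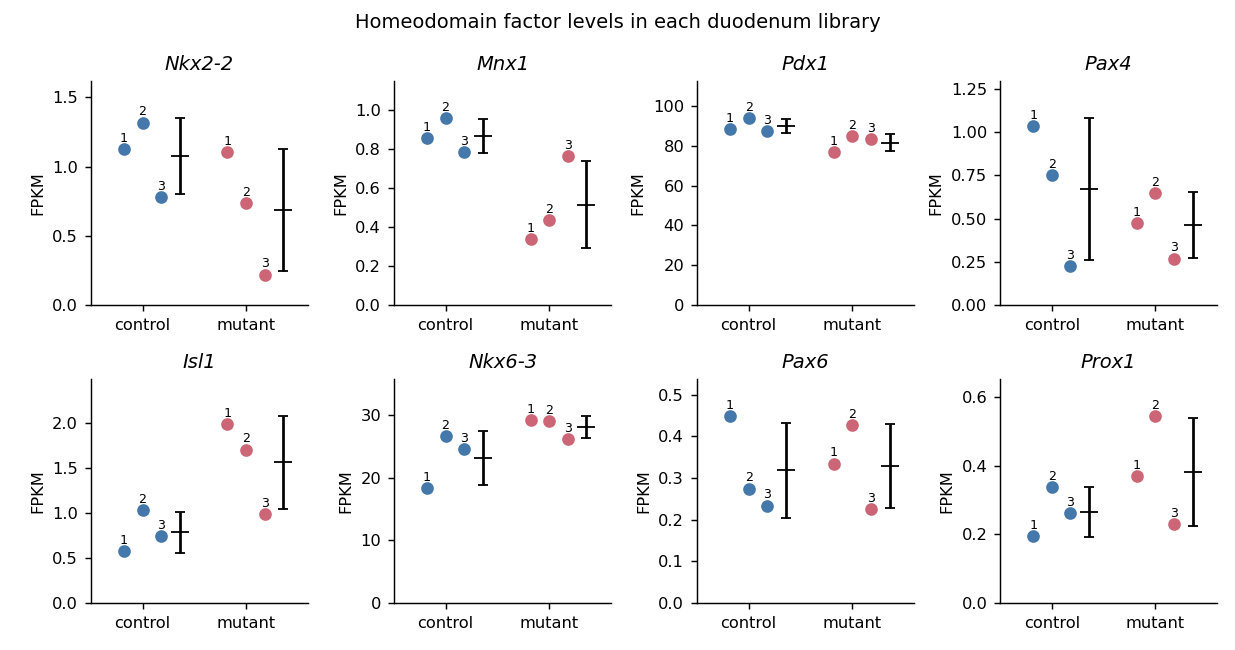
FPKM of the 8 factors (vertical axes, each from 0) in the control (blue) and mutant (red) libraries, numbered by replicate, with the group mean and SD in black. Mnx1 and Pdx1 were lower in all 3 mutants than in any control, and the other 6 genes overlapped between the groups.

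Nkx2-2, the targeted gene, did not separate the groups by its total level. The gene spans chr2:147003282-147012138 (mm9, minus strand), with 2 isoforms in the files. It stood at 1.13, 1.32 and 0.779 FPKM across controls, and at 1.10, 0.736 and 0.221 FPKM across mutants. Mutant 3 was the lowest of all 6 libraries, and mutant 1 lay beside control 1 in FPKM, though on 28 fragments against 51. The FPKM of the gene is the sum over its isoforms, each scaled by its own length. It therefore depends on how fragments were assigned to the isoforms. These levels corresponded to 51, 49 and 26 fragments in controls and 28, 20 and 7 in mutants, and the exact 95% Poisson intervals of control 3 (17.0 to 38.1) and mutant 1 (18.6 to 40.5) overlap. The log2 change, mutant minus control on the scale of log2(FPKM + 0.5), was -0.47 ± 0.30 (SE), with a 95% interval of -1.18 to 0.24, and the two-sided p of an exact permutation test was 0.2 (limma adjusted p = 0.999). With 3 samples against 3 that test cannot go below 0.1. Within each of the 3 same-numbered pairs the mutant was lower, and with the number as a block the limma adjusted p was 0.72. The log2 change was -0.15 without mutant 3, -0.72 without mutant 1 and -1.24 by limma-voom on estimated fragments.

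The isoforms of Nkx2-2 separate by their 3′ parts. Both begin with exon 1 (chr2:147011496-147012138, 643 bases) and the first 312 bases of exon 2 (chr2:147009982-147010293). The isoform of 2 exons and 2049 bases reads on through a further 1094 bases of exon 2 (chr2:147008888-147009981), which hold the end of its coding sequence and its 3′ UTR. The isoform of 3 exons and 1354 bases leaves exon 2 at a splice point and joins a distant exon 3 of 399 bases (chr2:147003282-147003680). The windows below, on the minus strand of mm9, show 3 boundaries of the isoforms, in the order chr2:147011466-147011525, chr2:147010264-147010323 and chr2:147003651-147003710. Capitals mark sequence that the 3-exon isoform keeps.
Exon 1 end: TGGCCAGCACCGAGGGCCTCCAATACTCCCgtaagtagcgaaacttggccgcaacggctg
Exon 2 start: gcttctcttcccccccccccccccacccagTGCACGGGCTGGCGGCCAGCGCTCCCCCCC
Exon 3 start: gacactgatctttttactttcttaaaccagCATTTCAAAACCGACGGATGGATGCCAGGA
GENCODE M1 gives a coding sequence of 822 bases to the 2-exon isoform and 747 to the 3-exon isoform.

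The estimated share of the 2-exon isoform in Nkx2-2 RNA was lower in every mutant than in any control. Of the summed FPKM of the gene, the 2-exon isoform took 83.6, 81.0 and 59.6% in controls 1 to 3, and 7.28, 1.00e-06 and 58.8% in mutants 1 to 3. Control 3 and mutant 3 were separated by less than 1 percentage point. In estimated fragments, the 2-exon isoform had 45.5, 42.8 and 18.3 in controls and 3.14, 3.23e-07 and 5.01 in mutants, while the 3-exon isoform had 5.54, 6.24 and 7.73 in controls and 24.9, 20.1 and 2.19 in mutants. Mutants 1 and 2 were thus assigned at most 3.14 fragments of the 2-exon isoform, and more of the 3-exon isoform than any control. Mutant 3 was low in both. Whether the fragments assigned to the 3-exon isoform lay in exon 3 was not tested. The mean share of the 2-exon isoform was 74.7 ± 13.2% in controls and 22.0 ± 32.1% in mutants, a difference of -52.7 percentage points. The exact two-sided permutation p was 0.1, the smallest this design allows, in a family of 3 such shares (Nkx2-2, Pax4 and Pax6). Without mutant 3 the difference was -71.1 percentage points. Neither isoform reached the FPKM minimum of the isoform test. When all isoforms were fitted without a minimum, the 2-exon isoform had a log2 change of -1.19 ± 0.22 (limma adjusted p = 0.665 over all isoforms), and the 3-exon isoform one of 0.47 ± 0.39 (limma adjusted p = 0.952).

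Assignment of a fragment to an isoform is an estimate by the authors' software from the exons that the isoforms do not share. A fragment that lies wholly in exon 1 and the first 312 bases of exon 2 could come from either isoform. Its assignment rests on the model of that software, so the split of such fragments need not be even. The deposited files give no level per exon, and the labels do not name the floxed exon, so which exons the mutant fragments came from was not tested. The antisense gene Nkx2-2as, on the opposite strand, overlaps 278 bases of exon 2, of which 163 belong to the 2-exon isoform alone. It rested on 0 fragments in all 6 libraries. Strand use in the counting is not given in the sources used here, so reads within the 278 shared bases cannot be assigned to a strand. The antisense transcript has 4345 bases in all.

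**Figure D2:**
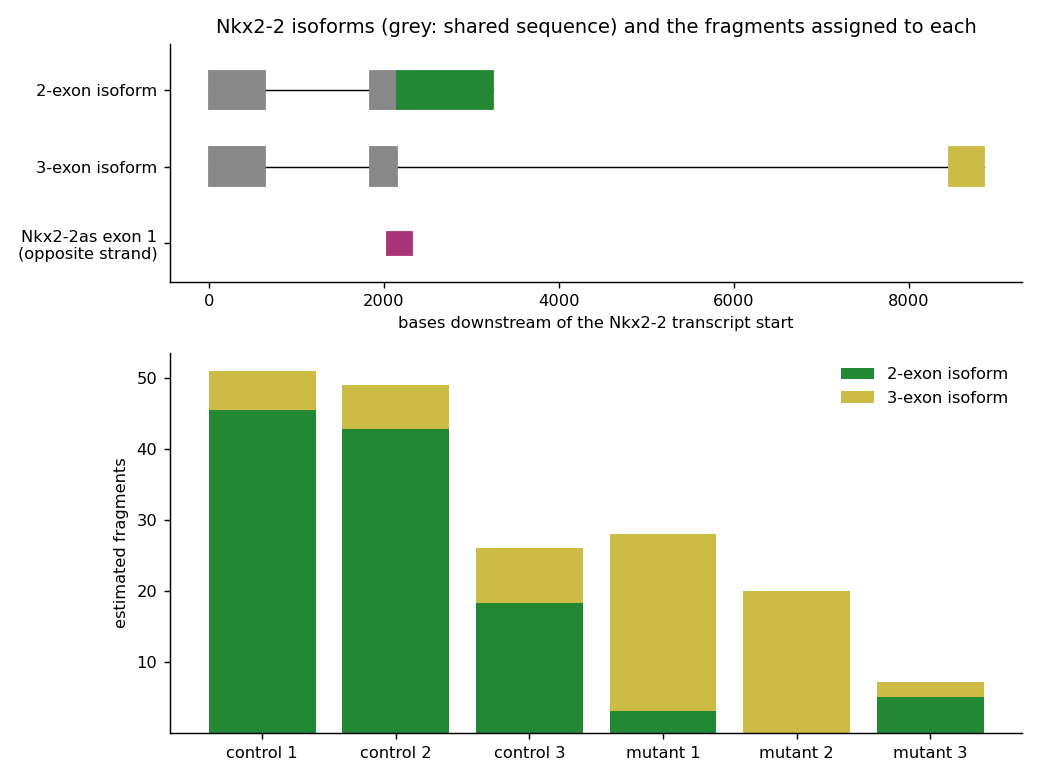
Top, exons of the 2 Nkx2-2 isoforms by distance in bases from the transcript start, with shared sequence in grey, sequence of 1 isoform in colour, and the exon of the antisense gene in purple. Bottom, estimated fragments per library assigned to each isoform, where the 2-exon isoform had 18.3 to 45.5 fragments in controls and at most 5.01 in mutants.

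Isl1, a LIM-homeodomain factor of enteroendocrine cells, islets and neurons, had the largest positive change among the 8 factors. Its levels were 0.576, 1.03 and 0.745 FPKM across controls and 1.99, 1.70 and 0.989 FPKM across mutants. Mutants 1 and 2 lay above every control, but mutant 3 lay just under control 2. The fragments behind these values were 35, 52 and 37 in controls and 98, 94 and 48 in mutants. Mean levels were 0.784 ± 0.230 and 1.56 ± 0.515 FPKM, a ratio of 1.99, with a log2 change of 0.66 ± 0.23 (95% interval 0.12 to 1.21). It did not pass over all genes tested (limma adjusted p = 0.999), and the exact permutation p was 0.2. Without mutant 3 the log2 change was 0.88 and the limma adjusted p 0.186, and with the replicate number as a block the adjusted p was 0.518. Enteric neurons also express Isl1, and the summed level of 9 neuron markers was 18.8 to 22.3 FPKM over the controls and 15.8 to 19.4 FPKM over the mutants. One of the 9, Chat, which makes acetylcholine in neurons and tuft cells, had 5, 6 and 2 fragments in controls and 34, 45 and 3 in mutants, high in mutants 1 and 2 as Isl1 was. Chat was singled out after its values were seen. The part of these cells in the Isl1 values was not tested.

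Nkx6-3, an NK-type factor of the distal stomach and duodenum that is needed for gastrin cells of the stomach, lay slightly higher in the mutants. It stood at 18.3, 26.6 and 24.5 FPKM across controls and at 29.2, 29.0 and 26.1 FPKM across mutants. Control 1 was the low library, and mutant 3 lay just below control 2. The log2 change was 0.29 ± 0.15 (95% interval -0.06 to 0.64), or 0.13 without control 1, and did not pass (limma adjusted p = 0.999). Markers of stomach and Brunner glands summed to 2125, 6855 and 2433 FPKM over the controls. Over the mutants they summed to 3704, 869 and 106 FPKM. Most of each sum was Tff2 (2096, 6296 and 2379 FPKM in controls, 3639, 855 and 104 FPKM in mutants). Gkn2, singled out after its values were seen, stood at 1.28, 207 and 0.0823 FPKM across controls and at most at 0.663 FPKM in mutants. Gkn1, Tff1, Muc5ac, Muc6 and Gast were also highest in control 2, and Gif and Atp4a in mutant 1. The part of these markers in the Nkx6-3 values was not tested.

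Mnx1, the homeodomain factor of motor neurons and islet beta cells, lay lower in all 3 mutants. Its levels were 0.856, 0.958 and 0.786 FPKM across controls and 0.339, 0.438 and 0.766 FPKM across mutants. Mutants 1 and 2 were well below every control, and mutant 3 was next to control 3. The counts were 28, 26 and 21 fragments in controls and 9, 13 and 20 in mutants, so the step between control 3 and mutant 3 was 1 fragment. Means were 0.867 ± 0.0862 and 0.515 ± 0.223 FPKM, a ratio of 0.594, and the log2 change was -0.45 ± 0.19 (95% interval -0.89 to -0.01). It did not pass over all genes (limma adjusted p = 0.999). An exact permutation test gave p = 0.1, and without mutant 3 the log2 change was -0.62 (limma adjusted p = 0.296).

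Pdx1, the factor that sets duodenal and pancreatic identity, was the most abundant and the steadiest of the 8. It stood at 88.4, 93.7 and 87.2 FPKM across controls and at 76.7, 84.7 and 83.2 FPKM across mutants. All mutants lay below all controls, by a small step. Means were 89.8 ± 3.42 and 81.5 ± 4.26 FPKM, a ratio of 0.908, with a log2 change of -0.14 ± 0.10 and a 95% interval of -0.37 to 0.10 (limma adjusted p = 0.999, exact permutation p = 0.1). The exocrine pancreas, which also expresses Pdx1 at low level, lies against the duodenum. The 12 exocrine markers summed to 17081, 16059 and 10558 FPKM over the controls and to 10240, 6373 and 2358 FPKM over the mutants, and their part in the Pdx1 values was not tested.

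Pax4, the paired-homeodomain factor that favours beta, delta and serotonin cell fates, did not separate the groups. It stood at 1.03, 0.7501 and 0.225 FPKM across controls and at 0.473, 0.648 and 0.270 FPKM across mutants. Both libraries numbered 3 were lowest, with 5 and 6 fragments. The log2 change was -0.23 ± 0.30 (95% interval -0.93 to 0.47, limma adjusted p = 0.999), and it was -0.002 without control 1 and -0.54 without control 3.

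The Pax4 isoforms differed between libraries of the same group. The longest (1357 bases) exceeds the middle one (1318 bases) by 39 bases and the shortest (1315 bases) by 42. GENCODE M1 has alternative starts of exon 9 and exon 10 that add the same 39 and 3 bases, shown here on the minus strand of mm9 (chr6:28393875-28393937 and chr6:28393560-28393595) with the optional bases in capitals.
Exon 9 start: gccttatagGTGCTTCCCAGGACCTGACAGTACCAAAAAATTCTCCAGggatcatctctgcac
Exon 10 start: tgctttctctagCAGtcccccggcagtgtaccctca
In control 1, the longest form took 92.1% of Pax4 FPKM, with 28.7 estimated fragments assigned to it. In the other 5 libraries the shortest form took 96.4 to 99.2%, with 5.14 to 17.9 fragments assigned. The forms differ in length by at most 42 bases, and how many fragments touched the optional bases was not tested. The share of the shortest form averaged 67.7 ± 52.2% in controls and 98.3 ± 1.02% in mutants. The exact permutation p of that difference was 0.4, and the difference was 0.49 percentage points without control 1.

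Pax6, the paired-homeodomain factor that drives hormone gene expression in islets and gut, overlapped between the groups. Its values were 0.449, 0.275 and 0.234 FPKM across controls and 0.335, 0.428 and 0.225 FPKM across mutants, each from 11 to 28 fragments. The means were 0.319 ± 0.114 and 0.329 ± 0.101 FPKM. No library reached the minimum of 0.5 FPKM, so Pax6 was not among the genes tested. Fitted without a minimum, its log2 change was 0.02 ± 0.14, with a 95% interval of -0.31 to 0.35, and the exact permutation p was 1.

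Pax6 isoforms also varied from library to library. Exon 5a is an optional exon of 42 bases that alters the DNA-binding paired domain. It is shown because the isoforms of 2605 and 2563 bases differ in length by 42 bases. The window is chr2:105524899-105524958 on the plus strand of mm9, with the exon in capitals.
Exon 5a: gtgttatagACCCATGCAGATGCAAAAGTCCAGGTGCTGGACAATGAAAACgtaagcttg
Of the isoforms that start at chr2:105509053, the one without the exon had 10.3, 14.1 and 1.98e-05 estimated fragments in controls 1 to 3 and 0.000448, 19.6 and 11.1 in mutants 1 to 3. The one longer by 42 bases had 17.8, 9.71e-05 and 7.28 fragments in controls and 17.1, 0.00156 and 0.00349 in mutants. Control 1 was assigned both forms, and control 2, mutant 1 and mutant 3 were each assigned in effect 1 form. How many fragments touched the 42 bases of the exon was not tested. Isoforms that start further downstream had fragments in control 3 (5.81, the form of 3161 bases) and mutant 2 (5.48, the form of 3119 bases) and in effect none in the other 4 libraries. The shorter of the first pair took 45.7 ± 50.6% of Pax6 FPKM over the controls and 60.5 ± 53.2% in mutants (exact permutation p = 0.9). Without control 3 or mutant 3 this difference turned negative (-8.01 and -4.91 percentage points).

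**Figure D3:**
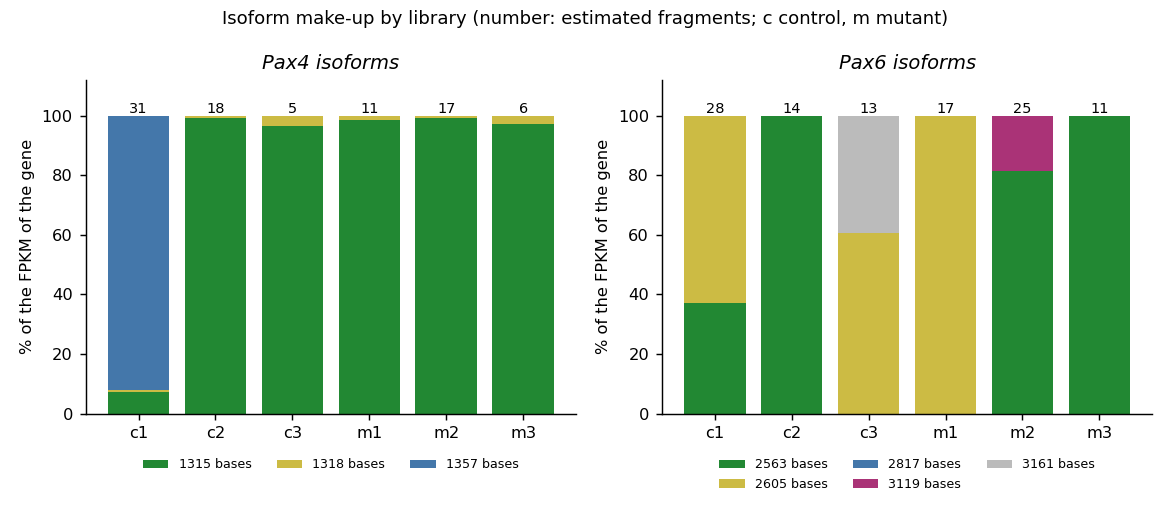
Share of each isoform in the FPKM of Pax4 and Pax6 (vertical axes, percent), by library, with isoforms named by length and the estimated fragments above each bar. Control 1 stood alone in Pax4 with 92.1% of the longest form, and the leading Pax6 form differed between libraries within both groups.

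Prox1, the factor of lymphatic endothelium that enteroendocrine and tuft cells also express, was the lowest of the 8 in controls. It stood at 0.194, 0.339 and 0.261 FPKM across controls and at 0.371, 0.545 and 0.231 FPKM across mutants. Mutants 1 and 2 lay above every control, and mutant 3 lay within the control range. Fragments were 20, 29 and 22 in controls and 31, 51 and 19 in mutants. Only mutant 2 reached 0.5 FPKM, so Prox1 was not tested. Without a minimum its log2 change was 0.20 ± 0.15 (95% interval -0.16 to 0.55, limma adjusted p = 0.995), and an exact permutation test gave p = 0.4. The 7 lymphatic markers summed to 19.7 to 29.4 FPKM over the controls and 23.3 to 27.4 FPKM over the mutants. Their part in the Prox1 values was not tested.

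Of the 6 members with at least 0.5 FPKM in 3 libraries, 0 passed the limma test at an adjusted p of 0.05, whereas 0.0221% of the 13596 genes tested did. At an unadjusted p under 0.05 limma returned 2 of the 6, Isl1 higher and Mnx1 lower, where 3.43% of all tested genes lay. All mutants lay below all controls in 2 of the 6, Mnx1 and Pdx1, against 3.71% of all genes, and above them in 0 of the 6, against 4.05%. The log2 change was above 0 in 2 members (Isl1 and Nkx6-3) and below 0 in 4, with a median of -0.18, where 44.2% of all genes lay above 0, 55.8% below it, and the median gene was at -0.02. Within same-numbered pairs the mutant was lower in all 3 pairs for Nkx2-2, Mnx1 and Pdx1, higher in all 3 for Isl1 and Nkx6-3, and of mixed direction for Pax4, Pax6 and Prox1. Of the 15 isoforms, 4 reached the minimum and 0 passed, against 0.00617% of the 16213 isoforms tested. At an unadjusted p under 0.05 limma returned 1 of the 4, that of Isl1, where 3.79% of all tested isoforms lay. All 4 are the sole isoform of their gene. Mutant 3 stood apart from mutants 1 and 2 in several members, though not in the same way. It was the mutant nearest to the controls in Isl1, Mnx1 and Prox1, and the mutant of lowest total Nkx2-2. The tomato allele, and anything else that set that sample apart, cannot be told apart from its number. In bulk tissue, fewer cells of a type and less RNA per cell cannot be told apart.

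The authors' deposited table of the comparison gives the same direction as the FPKM values for all 8 genes. In the authors' deposited table Isl1 had mean normalized counts of 40.9 in controls and 84.9 in mutants, and the smallest p of the 8 (0.00835). Nkx2-2 had 35.5 and 25.4 (p = 0.367) in the authors' deposited table, and Mnx1 25.8 and 16.4 (p = 0.18). Each of the 8 had an adjusted p of 1 in the authors' deposited table.

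Other transcription factors of the endocrine lineage were compared over the 14 list members reported here, of which 9 reached the minimum. With limma 0 of the 9 passed, where 0.0221% of all genes did. At an unadjusted p under 0.05 limma returned 0 higher, where 1.8% of all genes lay, and 3 lower, where 1.63% lay, and the median log2 change of the 9 was -0.33.

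The 3 that lay lower were Fev, Neurod1 and Neurog3. Fev, an ETS factor of serotonin cells, stood at 1.32, 0.832 and 1.07 FPKM across controls and 0.667, 0.397 and 0.0752 FPKM over the mutants, with a log2 change of -0.89 ± 0.27. Neurog3, which commits progenitors to the endocrine lineage, had a log2 change of -0.36 ± 0.14, and Neurod1, which acts after it, one of -0.57 ± 0.20 (limma adjusted p = 0.999 for all 3). These 3 genes, and Lmx1a, Nkx6-1, Isx and Mafa below, were singled out after their values were seen. The 2 most abundant genes of the list, Foxa1 (5.05 ± 1.16 and 3.55 ± 0.7502 FPKM) and Sox4 (5.06 ± 1.02 and 5.23 ± 0.683 FPKM), overlapped between the groups. Of the 5 under the minimum, Lmx1a, a LIM-homeodomain factor of serotonin cells, had 68, 48 and 18 fragments in controls and 6, 0 and 5 in mutants, and Nkx6-1, the beta cell relative of Nkx6-3, had 1 fragment in control 2 and 0 elsewhere.

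**Figure D4:**
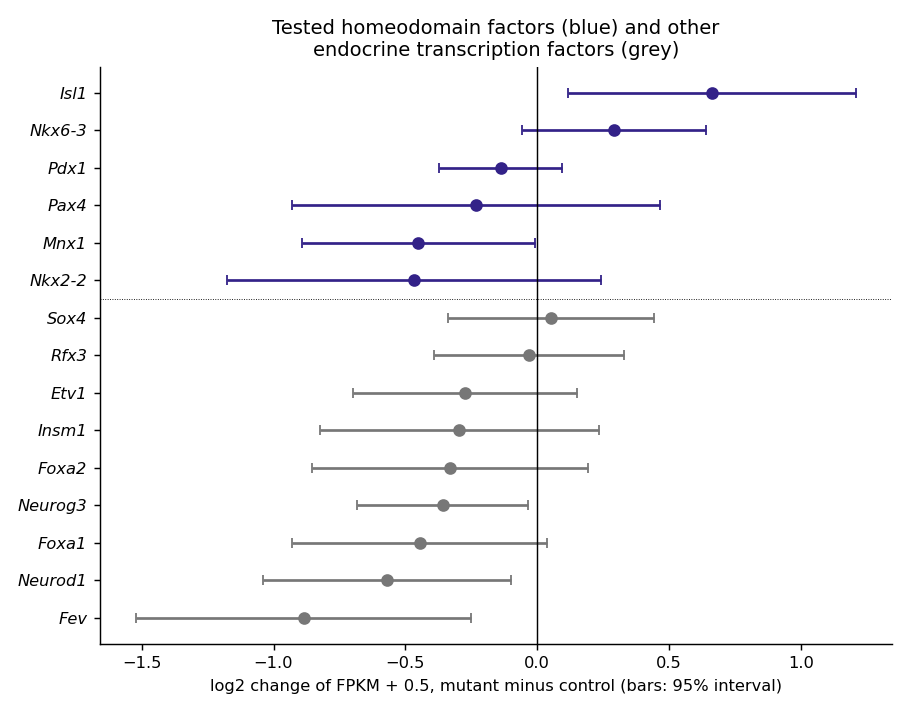
Log2 change of FPKM + 0.5, mutant minus control (horizontal axis), with 95% intervals from limma, for the 6 tested members (blue) and 9 other endocrine transcription factors (grey). Isl1 (0.66) lay above 0 with its interval, and Mnx1 (-0.45), Neurog3, Neurod1 and Fev below it; none passed over all genes.

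Factors that pattern the whole intestinal epithelium were compared next. Of 15 listed homeobox, GATA and nuclear receptor genes, 13 were tested with limma and 0 passed (0.0221% of all genes). At an unadjusted p under 0.05 limma returned 0 higher (1.8% of all genes) and 1 lower (1.63%), and the median log2 change was -0.12. In 4 of the 13 all mutants lay below all controls (3.71% of all genes), and in 0 above. The lower one was Isx, an intestine-specific homeobox gene of vitamin A control, at 73.4, 95.1 and 76.7 FPKM over the controls and 50.5, 58.7 and 62.9 FPKM over the mutants (log2 change -0.50 ± 0.14, limma adjusted p = 0.999). The most abundant of the list, Hnf4a, stood at 213 ± 15.5 and 184 ± 12.7 FPKM, and Cdx1 at 67.3 ± 2.89 and 72.4 ± 6.75 FPKM. A list of 9 corepressors and chromatin enzymes that Nkx2-2 is known or thought to recruit (Groucho family, Dnmt3a, histone deacetylases, Sin3a) was tested whole. With limma 0 of the 9 passed (0.0221% of all genes) and 0 had an unadjusted p under 0.05 (3.43%), with a median of -0.04. All mutants lay above all controls in 1 of the 9, Aes (4.05% of all genes), and below them in 0 (3.71%). Their most abundant members were Aes (465 ± 21.6 and 504 ± 13.2 FPKM) and Hdac2 (32.3 ± 3.40 and 28.9 ± 1.64 FPKM).

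Markers of hormone cells and of other tissues were read in the same libraries. Of 12 tested hormone genes and enzymes, limma called 1 higher and 1 lower, where 0.0221% of all genes were called. Ghrl, which encodes ghrelin, rose from 70.6 ± 11.9 to 1108 ± 402 FPKM (limma adjusted p = 0.0276), and Tac1, which encodes substance P, fell from 11.04 ± 0.286 to 1.796 ± 0.740 FPKM (limma adjusted p = 0.0491). Neither passed without a filter (limma adjusted p = 0.0632 for Ghrl and 0.102 for Tac1), and with 1 library left out the limma adjusted p ran from 0.000123 to 0.202 for Ghrl and from 0.00251 to 0.317 for Tac1. The hormone list had 1 gene higher (1.8% of all genes) and 8 lower (1.63%) at an unadjusted p under 0.05, and a list median of -1.22. Of 7 beta cell markers only Ins1, Ins2 and Ucn3 reached the minimum, and the list summed to 10.6 to 17.4 FPKM over the controls and to 15.0, 1.95 and 3.11 FPKM across mutants. The beta cell factors Mafa and Nkx6-1 had means of at most 0.0870 FPKM in either group. Ins2 made up 13.5 of the 15.0 FPKM in mutant 1. Ins1 and Ins2 overlapped between the groups. Ucn3 did not follow them, at 1.29 to 1.89 FPKM over the controls and 0.0993 to 0.259 FPKM over the mutants. The part of these cells in the Mnx1 values was not tested. Smooth muscle markers summed to 370 to 760 FPKM over the controls and to 411 to 596 FPKM over the mutants.

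The genes whose pattern over the 6 libraries came nearest to each member were found by the root mean square difference of centred log2 levels. Only tested genes were searched, without predicted models, genes named by clone or accession, small RNAs and genes under 200 bases. For Nkx2-2 these were Gsta2 (0.088) and Mecom (0.116), where Nkx2-2 itself spread by 0.438 around its mean. Isl1 came nearest to Clec2e (0.105) and Gapt (0.119), and Mnx1 to Anln (0.0465) and Kif22 (0.0596). Pax4 came nearest to Susd2 and Hsd17b11, Nkx6-3 to Armcx1 and Pign, and Pdx1 to Ppp1r12a and Arcn1. These are given as description, over 6 libraries.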

How the data were processed

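RNA of 3 control and 3 mutant duodenum samples was sequenced from libraries of the TruSeq RNA prep kit, per the labels. Tools listed in the submitters' processing notes are TopHat, Cufflinks, DESeq and CASAVA 1.8.2, with the build mm9 and no options, strand or roles. The authors deposited FPKM per gene and isoform with Cufflinks intervals, and a coverage signal per isoform, per the file headers. The authors' deposited table holds mean normalized counts as a signal and their ratio (fold change), in log2 too. It also gives p-values before and after adjustment, per the file headers. Coordinates are mm9, and the exon models and sequences come from NCBIM37, the same build, and GENCODE M1.

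Fragment numbers were worked back from coverage and FPKM (the read length that matched best was 101 bases), and 89.5 to 90.5% of values of up to 200 fragments in genes with 1 isoform lay within 0.1 of a whole number. Poisson intervals cover counting error only. Genes with at least 0.5 FPKM in at least 3 libraries (13596) and isoforms likewise (16213) were fitted as log2(FPKM + 0.5) with limma 3.58.1 (trend and robust prior, statmod 1.5.0, R 4.3.3), two-sided, Benjamini-Hochberg over all rows, threshold 0.05, and checked on simulated data. A pseudocount understates changes of low genes. Exact tests used scipy 1.17.1 (Python 3.11.15), and plots matplotlib 3.10.9. In marker lists, the row of highest mean stood for a repeated gene name.

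Named genes are all members, the genes of each list past the threshold or else the 2 of highest mean where a result needed them, and the 2 most alike in pattern. A few items are not reported here. Members and lists were chosen with earlier results of these data known. Both groups carry the numbers 1 to 3. Deviations from the group means correlated at 0.26, 0.25 and 0.58 within same-numbered pairs, all over 0.1, and samples of 1 number were therefore treated as possible pairs. Control 1 correlated more highly with mutant 2 (0.30) than with mutant 1, and control 2 correlated with mutant 1 at 0.19. No label states the meaning of the numbers. The reported fits have no block, and the blocked fit is an alternative. That the samples are separate animals is not stated, so p-values measure the spread between samples. Limma-voom on estimated fragments and shares of estimated fragments were added after seeing the data.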

Additional observations from a re-analysis of the deposited data

How the results depend on the processing

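Each of the 6 tested members kept its direction and had no call in all 100 combinations of member and setting (pseudocount, filter, scaling, prior, block, 1 library left out, limma-voom). A change of filter, prior or block leaves the log2 change as it is by construction. Those settings therefore bear on the call and not on the direction. Log2 changes ranged from 0.51 to 0.98 for Isl1, -0.81 to -0.31 for Mnx1, -1.24 to -0.15 for Nkx2-2, 0.13 to 0.40 for Nkx6-3, -0.54 to -0.002 for Pax4 and -0.17 to -0.10 for Pdx1. For Nkx2-2 the value of -1.24 came from limma-voom and that of -0.15 from the log2(FPKM + 0.5) fit without mutant 3; the cause was not tested.

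Over all genes 3 were called (467 at an unadjusted p under 0.05), 1 without a filter or with upper quartile scaling, and 22 with the replicate block. With 1 library left out, 2 to 68 were called, 68 without mutant 3 and 8 without mutant 1. Over all isoforms 1 was called, 4 without a filter, 5 without the trend and robust prior, 3 with the replicate block, and 1 to 20 with 1 library left out (20 without mutant 3, 5 without mutant 1, 4 without control 3, 2 without control 1). The block changed no call among the 6 tested factors.

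The difference in share of the leading isoform was -52.7 percentage points for Nkx2-2 (-71.1 to -41.7 with 1 library left out). It was 30.6 for Pax4 (0.49 to 46.4), where the value rests on control 1, and 14.8 for Pax6 (-8.01 to 45.1). The share of the second isoform differed by 52.7 percentage points for Nkx2-2, which has 2 isoforms and so mirrors the first by construction, by -30.7 for Pax4 (3 isoforms) and by -7.88 for Pax6 (5 isoforms). Among other factors, Sox4 (0.05; -0.0411 to 0.197 with 1 library left out) turned to -0.001 without control 1, -0.0411 without control 3 and -0.004 without mutant 1, and Rfx3 (-0.03; -0.110 to 0.0682 with 1 library left out) to 0.0125 with quantile normalization and 0.0682 without control 2. Depth limits the low members: a library of 7 Nkx2-2 fragments (2.81 to 14.4, exact Poisson) gives an isoform share of low precision.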
